A study of Mus musculus with 43 samples.

Results

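The first hours of the retinoic acid (RA) response were measured in Stra8-knockout (KO) germ cell cultures. The 9 libraries are the 3 KO cultures KO12, KO20 and KO21 at 4 h of RA and the same 3 cultures untreated at 0 h and at 8 h of the solvent DMSO. They are 9 of the 43 samples of the series. A gene is called early here when RA 4 h differed from untreated 0 h and from DMSO 8 h in the same direction, with an adjusted p below 0.05 in each of these comparisons and the culture kept as a block.

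The series compared Stra8-KO with wild-type (WT) mouse cultures under all-trans RA or DMSO at 4, 8 and 24 h and untreated at 0 h, by RNA sequencing. Cultures had been started from testis cells positive for THY1, a surface protein of spermatogonial stem cells. They grew on STO feeders, a mouse fibroblast line, between passages 3 and 12, without serum and with the growth factors GDNF (20 ng/ml) and FGF2 (1 ng/ml) and the GDNF co-receptor GFRA1 (150 ng/ml). DMSO was used at 0.01%, and the RA dose is stated as 0.01 M, which no value in the table can check and which may be that of a stock. RNA had an integrity number of at least 9.2. The deposited values are on a log2 scale and keep no read totals, so depth is unknown. Each culture name recurs in every group, but the labels do not say that each came from a separate mouse. With the culture as a block, differences in level between cultures are removed. The p-values measure how the changes varied among these cultures, with each gene's variance moderated by limma toward that of genes of similar level. In the KO fit, 4 residual degrees of freedom stood beside a median of 8.33 prior ones, which come from the other genes. The spread among cultures may in part be technical and may not stand for the spread between mice.

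DMSO 4 h, the vehicle of the same hour, was left out of the calls because its KO20 library matched KO20 at 24 h of RA. Over 7915 genes these libraries differed with a standard deviation (SD) of 0.0403 on the log2 scale, against 0.102 for the closest of the other KO pairs. The DMSO 4 h libraries of KO12 and KO21 had Cyp26a1 at 5.37 and 5.47, within 0.5 of the untreated cultures. Their values stand beside the results below as a description, from 2 of the 3 cultures and without p-values.

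RA is made from vitamin A and binds nuclear receptors (RARs, paired with RXRs) that sit on DNA at their target genes, where it replaces corepressors with coactivators. The same receptors induce enzymes of the CYP26 family, which break RA down, so induction of Cyp26a1 is a common readout of the pathway. In the testis RA moves undifferentiated spermatogonia into differentiation, marked by the receptor KIT, and induces Stra8, which is needed for entry into meiosis.

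The cultures carried germ cell transcripts throughout. All 12 defining germ cell markers were measured, with levels of log2 7.87 to 15.12 (Dazl the highest), and their summed linear level was 118657 to 122988 at RA 4 h, 107698 to 108718 at DMSO 8 h and 116414 to 120024 untreated. The 24 tested feeder fibroblast markers summed to 33706 to 50819 at RA 4 h, 42979 to 66822 at DMSO 8 h and 45771 to 78527 untreated, ranges that overlap. In bulk RNA, fewer cells of a type and less RNA per cell cannot be told apart.

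Stra8, the gene targeted in these mice, still gave transcript signal in every KO library. At RA 4 h it had log2 8.45, 8.36 and 8.35 in KO12, KO20 and KO21, against 6.31, 6.49 and 6.37 untreated and 6.37, 6.65 and 6.27 at DMSO 8 h. The KO libraries at RA 4 h lay above all 6 controls. The increase was 2.00 ± 0.09 (standard error, SE) over untreated and 1.96 ± 0.09 over DMSO 8 h (larger adjusted p = 6.07e-08). The labels do not state the deleted part of the gene or where reads fall, so this signal does not check the genotype.

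Against untreated cultures 5311 of 16259 genes tested were called, 2772 higher (17%) and 2539 lower (15.6%). Against DMSO 8 h there were 3333, with 1795 higher (11%) and 1538 lower (9.46%). Both calls in 1 direction gave 1331 early genes that rose (8.19%) and 857 that fell (5.27%). The controls themselves differed in 2694 genes, 1468 higher (9.03%) and 1226 lower (7.54%) at DMSO 8 h than untreated, and 371 early genes were among them. Of the 3044 genes called against untreated alone, 1263 differed between the controls, as did 474 of the 1066 called against DMSO 8 h alone. These counts changed with the culture left out, which also leaves fewer libraries in the fit. Without KO20, 2538 genes were called against untreated, 1518 against DMSO 8 h and 523 between the controls, with 669 early genes that rose and 308 that fell. Without KO12 the counts were 3235, 1798 and 1530, with 804 and 299, and without KO21 they were 4859, 3391 and 2234, with 1215 and 892. Another 79 genes were called in opposite directions. The median of all genes was -0.0065 against untreated and -0.0033 against DMSO 8 h.

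Txnip, an inhibitor of thioredoxin, and Ccnd1, cyclin D1, show what requiring both controls removes. Txnip had 11.85, 11.90 and 11.90 at RA 4 h, against 12.40, 12.56 and 12.49 untreated and 11.84, 11.91 and 11.97 at DMSO 8 h. RA 4 h lay below untreated and within the range of DMSO 8 h. Ccnd1 was lower than at DMSO 8 h by a change of -0.44 and differed from untreated by -0.09 (adjusted p = 0.057). Neither gene was early.

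Most early changes were small. The smaller of the changes against untreated and DMSO 8 h had a median of 0.28 among genes that rose and -0.27 among those that fell. It reached 1, a doubling on the linear scale, in 73 genes that rose and in 1 that fell (Ifi47), and 0.5 in 316 and 92. All 3 cultures moved the same way against both controls in 1328 of 1331 genes that rose and 851 of 857 that fell. RA 4 h lay above all 6 control libraries in 1099 of the genes that rose, beside 9.79% of all genes tested, and below them in 562 of those that fell, beside 6.28%. The same libraries chose these genes, so the counts of cultures and libraries describe the calls and lend them no support. At the threshold, Zfp318, 2010300C02Rik and Cyp26b1 were just inside, with a larger adjusted p of 0.0496 to 0.0499, and Rab3gap1, Tagln2 and Rbfa just outside.

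**Figure D1:**
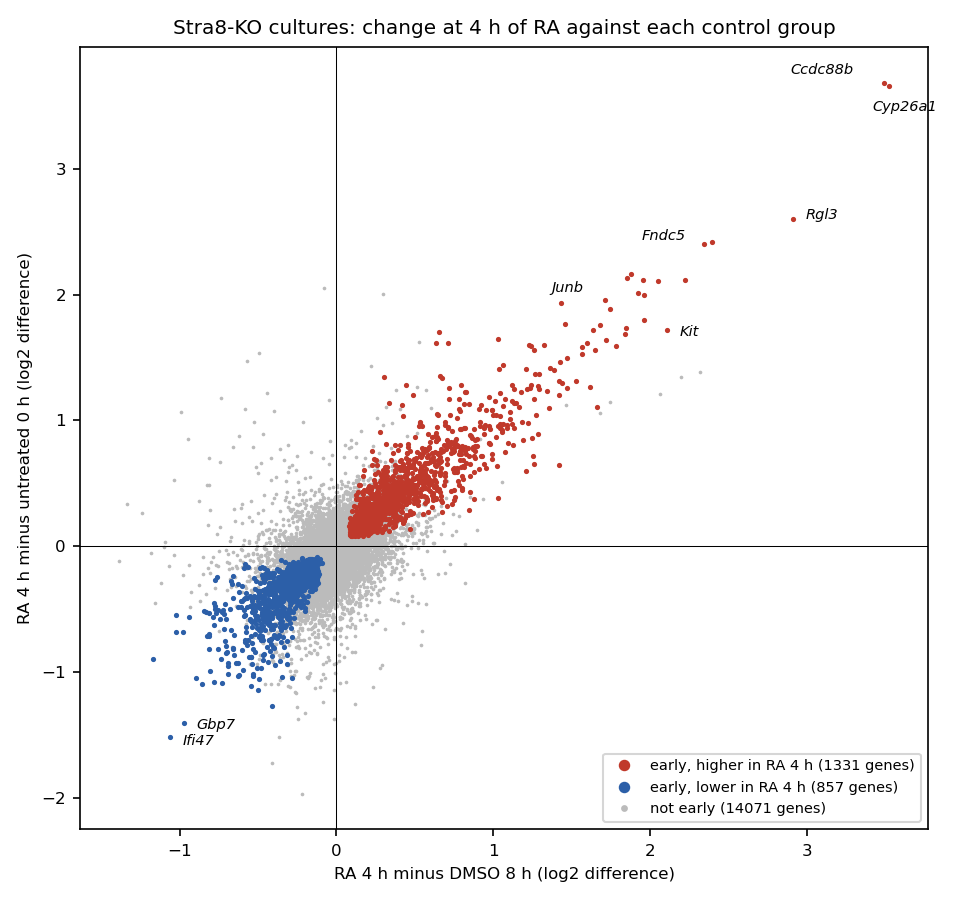
Log2 difference of RA 4 h from untreated 0 h (vertical) and from DMSO 8 h (horizontal) for each of the 16259 genes in KO cultures, coloured by whether the gene was called early. Cyp26a1 and Ccdc88b stand alone at the upper right, above 3.4 on both axes. The axes share the RA 4 h libraries, so the slope of the cloud is no result.

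The leading early gene was Cyp26a1, the enzyme that clears RA (chromosome 19, 37697808 to 37701528, build GRCm38). At RA 4 h it had log2 9.02, 8.70 and 8.79, against 5.04, 5.28 and 5.22 untreated and 5.22, 5.54 and 5.18 at DMSO 8 h. The groups were separated by more than 3 log2 units. The increase was 3.66 ± 0.12 over untreated (SE, 12.6-fold) and 3.52 ± 0.12 over DMSO 8 h (11.5-fold, larger adjusted p = 4.5e-09). Against DMSO 4 h in KO12 and KO21 the difference was 3.48. Cyp26b1, a second RA hydroxylase, had 4.21, 4.46 and 4.60 at RA 4 h, against 3.48, 3.84 and 4.14 untreated and 3.80, 4.26 and 4.08 at DMSO 8 h. Its groups overlapped. It passed narrowly with changes of 0.60 and 0.37 (lost without any 1 culture, adjusted p = 0.104 to 0.215), and the difference from DMSO 4 h was 0.20. Cyp26c1 was too low to test.

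Rarb, the receptor gene long known as an RA target, had 6.34, 5.81 and 5.92 at RA 4 h, against 3.83, 3.99 and 3.92 untreated and 3.92, 4.19 and 3.81 at DMSO 8 h. RA 4 h was above every control. The increase was 2.11 ± 0.15 and 2.05 ± 0.15 (larger adjusted p = 1.41e-06), and 1.97 against DMSO 4 h. Of the 12 receptor and cofactor genes tested 4 rose (33.3%, beside 8.19% of all genes) and none fell, Rarb, the ligand-dependent corepressor Nrip1 (0.95 and 0.71), the coactivator Ncoa3 (0.39 and 0.32) and Rarg (0.52 and 0.30, lost without KO20, adjusted p = 0.06). All 4 were above DMSO 4 h in both KO12 and KO21, beside 80.2% of all early genes that rose and 27.7% of all genes tested. This comparison shares the RA 4 h libraries that chose these genes, so it lends the calls no support. Rara was higher than untreated by 0.47 but not called against DMSO 8 h (0.13, adjusted p = 0.051), and the corepressor gene Ncor1 was not early.

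Promoter sequence is shown for 3 early genes, as the textbook RAR site, a pair of half-sites in direct repeat with a gap of 5 bases, was found in their RefSeq windows (build GRCm38.p6). Each line gives the 150 bases before the gene start, 5′ to 3′ on the gene's strand, with both half-sites and the gap in capitals.
Cyp26a1: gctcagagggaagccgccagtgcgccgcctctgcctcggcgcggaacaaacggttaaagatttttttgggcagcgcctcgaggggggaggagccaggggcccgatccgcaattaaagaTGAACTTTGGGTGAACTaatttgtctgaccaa
Rarb: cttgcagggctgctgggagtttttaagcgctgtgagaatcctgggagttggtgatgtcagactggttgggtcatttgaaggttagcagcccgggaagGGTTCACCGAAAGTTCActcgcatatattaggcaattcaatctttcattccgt
Blvrb: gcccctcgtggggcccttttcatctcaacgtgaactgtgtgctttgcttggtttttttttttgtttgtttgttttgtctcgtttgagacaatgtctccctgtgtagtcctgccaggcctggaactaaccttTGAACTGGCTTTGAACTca
They lie at chr19:37697658-37697807 on the plus strand, chr14:16575477-16575626 on the minus strand and chr7:27452268-27452417 on the plus strand. In Rarb the match reads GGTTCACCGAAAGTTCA, from 53 to 37 bases before the start (-53 to -37). In Cyp26a1 the opposite strand reads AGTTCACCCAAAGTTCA (-32 to -16), and in Blvrb AGTTCAAAGCCAGTTCA (-19 to -3). The search used the half-site AGGTCA, also in the form AGTTCA, in the form GGGTCA or in the form GGTTCA, on both strands. Windows of 300 bases (250 before and 50 after the start) could be matched to 11505 of the genes tested, and 6 of them (0.0522%) held this repeat, among them 3 of 994 early genes that rose and 0 of 655 that fell. A gap of 2 was found in 14 genes (0.122%), 3 of them early and higher (0.302% of the 994). A gap of 1 was found in 37 (0.322%), with 3 early and higher (0.302%), Bco1 among them. The gap of 1 was thus no more frequent among early genes that rose than among all genes. Blvrb, biliverdin reductase B, was named for this match after its values were seen, and rose by 1.14 and 1.13, with 1.14 over DMSO 4 h. Its match lies before one of 2 starts listed for the gene. A match is a description of letters and does not show binding.

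Of 20 genes of retinoid handling tested, 3 rose (15%) and 1 fell (5%), beside 8.19% and 5.27% of all genes. Dhrs3, which returns retinaldehyde to retinol, had 9.11, 9.20 and 9.03 at RA 4 h, against 8.35, 8.35 and 8.27 untreated and 8.24, 8.34 and 8.31 at DMSO 8 h. The groups did not overlap and the increase was 0.79 ± 0.06 and 0.82 ± 0.06 (larger adjusted p = 1.13e-06). Bco1, which cleaves beta-carotene, rose by 0.89 and 1.28. Aldh1a3, an enzyme that makes RA, fell by 0.44 and 0.39 and was also lower than DMSO 4 h, by a difference of -0.45. Its lowest untreated and DMSO 8 h values, 7.90 and 7.79 in KO21, lay below KO12 at RA 4 h, 8.35. In KO12 the order of groups was the same, with 8.80 untreated and 8.92 at DMSO 8 h. The call was lost without KO12 (adjusted p = 0.13) or KO20 (0.0774). Aldh1a2, Rdh10 and the carrier genes Crabp1 and Crabp2 were not early.

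**Figure D2:**
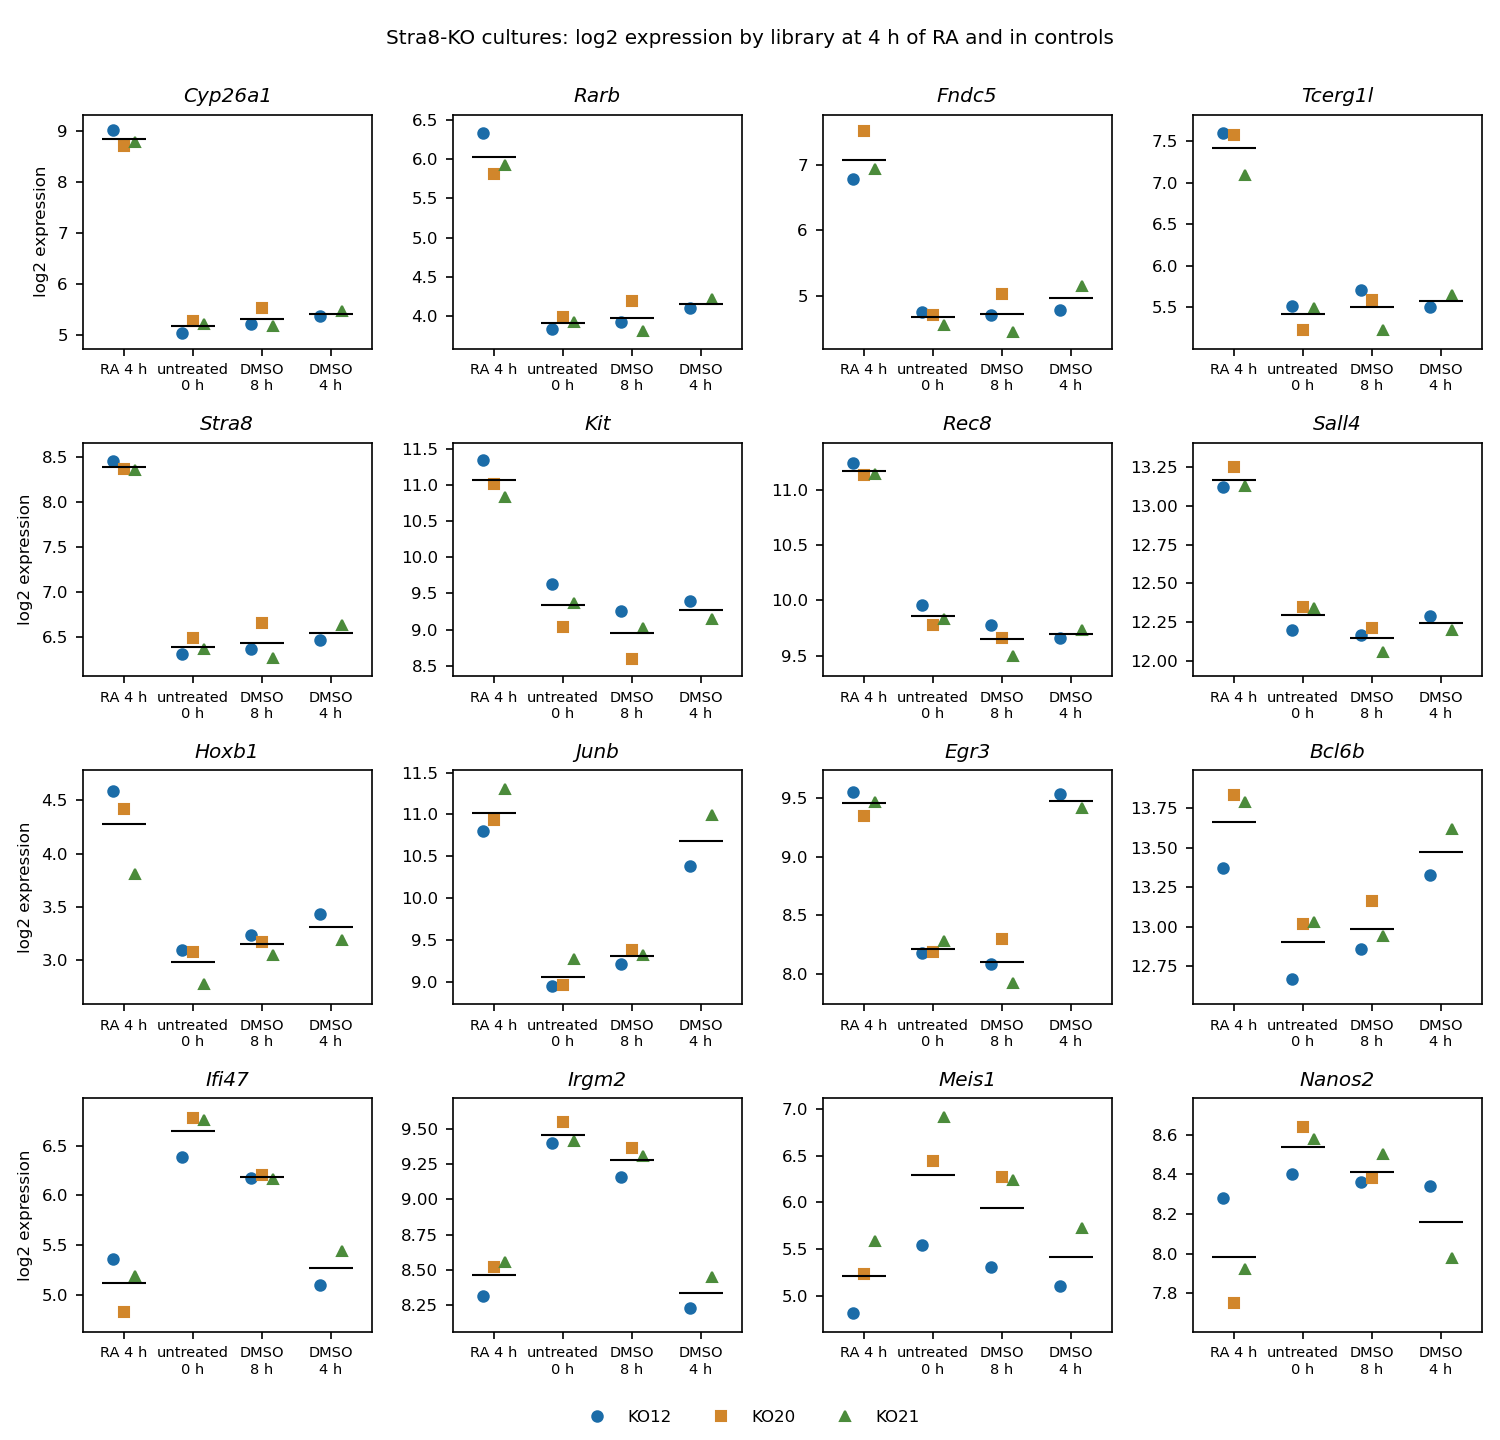
Log2 expression by library for 16 genes in KO cultures at RA 4 h, untreated 0 h, DMSO 8 h and DMSO 4 h (KO12 and KO21 alone), with 1 marker shape per culture and a bar at the mean. In the panels from Cyp26a1 to Hoxb1 DMSO 4 h lies with the other controls, and in Junb, Egr3, Bcl6b, Ifi47 and Irgm2 it lies with RA 4 h or near it.

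Several of the largest increases were in genes outside the lists of RA receptors and cofactors and of retinoid handling. Ccdc88b, a coiled-coil protein studied in immune cells, had 9.29, 9.51 and 9.24 at RA 4 h, against 5.59, 5.84 and 5.57 untreated and 5.82, 6.23 and 5.52 at DMSO 8 h. It rose by 3.68 ± 0.10 and 3.49 ± 0.10 (larger adjusted p = 1.39e-09), as far as Cyp26a1 within their errors. Rgl3, a guanine nucleotide exchange factor for Ral, had 8.77, 8.80 and 8.71 at RA 4 h, against 6.17, 5.98 and 6.33 untreated and 6.07, 5.99 and 5.49 at DMSO 8 h. Its changes were 2.60 and 2.91. Fndc5, the precursor of irisin, had 6.79, 7.51 and 6.93 at RA 4 h, against 4.76, 4.71 and 4.55 untreated and 4.71, 5.03 and 4.45 at DMSO 8 h. Its change was 2.40 and 2.35, and 1.89 against DMSO 4 h.

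Tcerg1l, named with Stra8 in the title of the series, had 7.60, 7.58 and 7.09 at RA 4 h, against 5.52, 5.23 and 5.49 untreated and 5.71, 5.59 and 5.22 at DMSO 8 h. KO21 was the lowest of the RA libraries and still above all controls. The increase was 2.01 ± 0.13 and 1.92 ± 0.13 (larger adjusted p = 9.81e-07), with 1.77 against DMSO 4 h. Npr1, the receptor of atrial natriuretic peptide, rose by 2.17 and 1.88, and Agpat3, an acyltransferase of phospholipid synthesis, by 1.74 and 1.84. Gdap1l1 (2.11 and 2.22), Efcc1 (2.12 and 1.96), Slx1b (1.80 and 1.96), Mab21l3 (1.88 and 1.74), Sowahb (1.68 and 1.84), the ligand gene Wnt7b (1.76 and 1.68) and Gfra3, the artemin co-receptor (1.59 and 1.78), completed the 18 largest together with Kit and Junb. Of these 18, 17 differed from DMSO 4 h by 1.22 or more, and Junb by 0.37.

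Of 23 genes of differentiating spermatogonia tested, 6 rose (26.1%, beside 8.19% of all genes) and 2 fell (8.7%, beside 5.27%), while the list median was 0.01 against untreated and 0.032 against DMSO 8 h. Kit, the receptor of stem cell factor that marks differentiating spermatogonia, had 11.35, 11.01 and 10.84 at RA 4 h, against 9.63, 9.03 and 9.37 untreated and 9.25, 8.59 and 9.02 at DMSO 8 h. The groups did not overlap, and KO12 was the highest culture in every group. The increase was 1.72 ± 0.10 over untreated and 2.11 ± 0.10 over DMSO 8 h (larger adjusted p = 2.37e-05). Rec8, the meiotic cohesin subunit, had 11.24, 11.13 and 11.14 at RA 4 h, against 9.96, 9.78 and 9.83 untreated and 9.78, 9.66 and 9.50 at DMSO 8 h. It rose by 1.31 ± 0.045 and 1.53 ± 0.045 (larger adjusted p = 4.39e-09). Lin28a and the cyclin gene Ccnd2 rose by less, 0.17 and 0.31 for Lin28a and 0.33 and 0.23 for Ccnd2. Ccnd2 was at the same level in the 4 h vehicle, with a difference of 0.00, and its call was lost with quantile normalization (adjusted p = 0.261).

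Sall4, a zinc finger factor of germ line and pluripotent cells, had 13.12, 13.25 and 13.13 at RA 4 h, against 12.20, 12.35 and 12.34 untreated and 12.17, 12.21 and 12.06 at DMSO 8 h. It rose by 0.87 ± 0.04 and 1.02 ± 0.04 (larger adjusted p = 4.1e-08). The genes of this list that fell were Dmrtb1 (DMRT6), a factor that in mouse limits spermatogonial genes before meiosis (-0.53 and -0.81), and the RNA-binding protein gene Elavl2 (-0.17 and -0.59, lost without KO20, adjusted p = 0.0708). Sohlh1, Sohlh2 and Dnmt3b were not early. Of 34 genes of meiotic prophase 2 rose, Stra8 and Rec8 (5.88%, beside 8.19% of all genes tested), and none fell. Sycp3 of the synaptonemal complex differed by 0.16 and 0.15 (larger adjusted p = 0.061), and the recombinase Dmc1 by 0.14 and 0.06.

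Among 19 tested Hox genes, which set position along the body axis and are textbook RA targets, 8 rose (42.1%, beside 8.19% of all genes) and none fell. All 8 belong to the HoxB cluster of chromosome 11: Hoxb1, Hoxb2, Hoxb3, Hoxb4, Hoxb5, Hoxb6, Hoxb8 and Hoxb13. Hoxb1 had 4.59, 4.42 and 3.81 at RA 4 h, against 3.10, 3.08 and 2.78 untreated and 3.24, 3.17 and 3.05 at DMSO 8 h. Each RA library was above every control, and the change was 1.28 ± 0.13 and 1.12 ± 0.13 (larger adjusted p = 9.26e-05). These untreated and DMSO 8 h values all lay below the filter value of 3.32, which the RA 4 h values passed. Hoxb1 thus met the filter through libraries where it was high. Its p-value and its place among the 8 are a description only. Hoxb4 rose by 1.15 and 1.12, Hoxb2 by 1.07 and 0.79 and Hoxb6 by 1.05 and 0.64. Hoxb13, farther along the cluster, had 4.80, 6.51 and 5.97 at RA 4 h, against 4.09, 5.04 and 4.32 untreated and 4.26, 5.15 and 4.02 at DMSO 8 h, so KO12 at RA 4 h lay below untreated KO20. Calls were lost without KO20 for Hoxb13 (adjusted p = 0.072), Hoxb8 (0.0599) and Hoxb3 (0.0679) and without KO12 for Hoxb2 (0.173) and Hoxb3 (0.105). Of the 10 HoxB genes tested, Hoxb7 (0.25 and 0.26) and Hoxb9 (0.42 and 0.16) did not pass both tests. The 9 tested genes of HoxA and HoxC gave no early call, Hoxa3 with changes of -0.94 and -0.31 among them. Of 39 Hox genes in the table only these 19 passed the filter on low values, and no HoxD gene did, so a response of HoxD genes was not detectable at these levels. Of 20 classic RA target genes tested, 7 rose (35%, beside 8.19% of all genes) and 2 fell, Meis1 and Meis2 (10%, beside 5.27%). Beside Stra8, Rec8, Hoxb1 and Btg2 the members that rose were Tgm2, transglutaminase (0.76 and 0.88), and the homeobox genes Cdx1 (0.67 and 0.66) and Gbx2 (0.47 and 0.36). The call of Cdx1 was lost without KO20 (adjusted p = 0.0783) and that of Gbx2 without any 1 culture (0.0681 to 0.161).

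Genes of undifferentiated spermatogonia did not move as a block: 11 of 38 tested rose (28.9%, beside 8.19% of all genes) and 4 fell (10.5%, beside 5.27%). The factors that rose were Eomes (0.86 and 0.86), Bcl6b (0.76 and 0.68), Sall4, Pax7 (0.46 and 0.57), the adhesion gene Cdh1 (0.42 and 0.62) and Pou5f1 (0.38 and 0.17), with Lin28a, Etv5, Epcam, Glis3 and Ccnd2 below 0.5. Of the 11, 8 were above DMSO 4 h in both KO12 and KO21, beside 80.2% of all early genes that rose. The difference from DMSO 4 h was 0.36 for Eomes, 0.10 for Bcl6b, 0.88 for Sall4, 0.35 for Pax7 and 0.37 for Pou5f1. The list median was 0.14 against untreated, 0.09 against DMSO 8 h and -0.036 against DMSO 4 h. Nanos2, an RNA-binding protein that holds male germ cells back from differentiation, had 8.28, 7.75 and 7.92 at RA 4 h, against 8.40, 8.64 and 8.58 untreated and 8.36, 8.38 and 8.50 at DMSO 8 h. Each RA library was below every untreated and DMSO 8 h library, and it fell by 0.56 and 0.43 (larger adjusted p = 0.0453). DMSO 4 h was at 8.34 in KO12 and 7.98 in KO21, so the KO21 vehicle of the same hour was low too. Without 1 culture calls were lost for Nanos2 (adjusted p = 0.174 without KO20 and 0.316 without KO21), Pou5f1 (any culture, 0.0977 to 0.194), Eomes (0.0507 without KO12 and 0.0813 without KO20) and Cdh1 (0.0714 without KO12). That of Nanos2 was also lost with quantile normalization (0.0668) and median centring (0.0638). Zbtb16 (-0.19 and -0.04) and Gfra1 (0.24 and 0.52) were not early.

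The 4 h vehicle split the early genes. Of the 1331 that rose, 1068 (80.2%) were above DMSO 4 h in both KO12 and KO21, beside 27.7% of all genes tested. Of the 857 that fell, 671 (78.3%) were below it in both, beside 33.6%. The sizes differed more than the signs. Among the 316 genes higher by at least 0.5, the difference from DMSO 4 h was also at least 0.5 in 222, between 0.25 and 0.5 in 60 and below 0.25 in 34. Among the 92 genes lower by at least 0.5 it was at most -0.5 in 12, between -0.5 and -0.25 in 39 and above -0.25 in 41. These comparisons share the RA 4 h libraries, and KO20 has no usable vehicle at that hour.

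**Figure D3:**
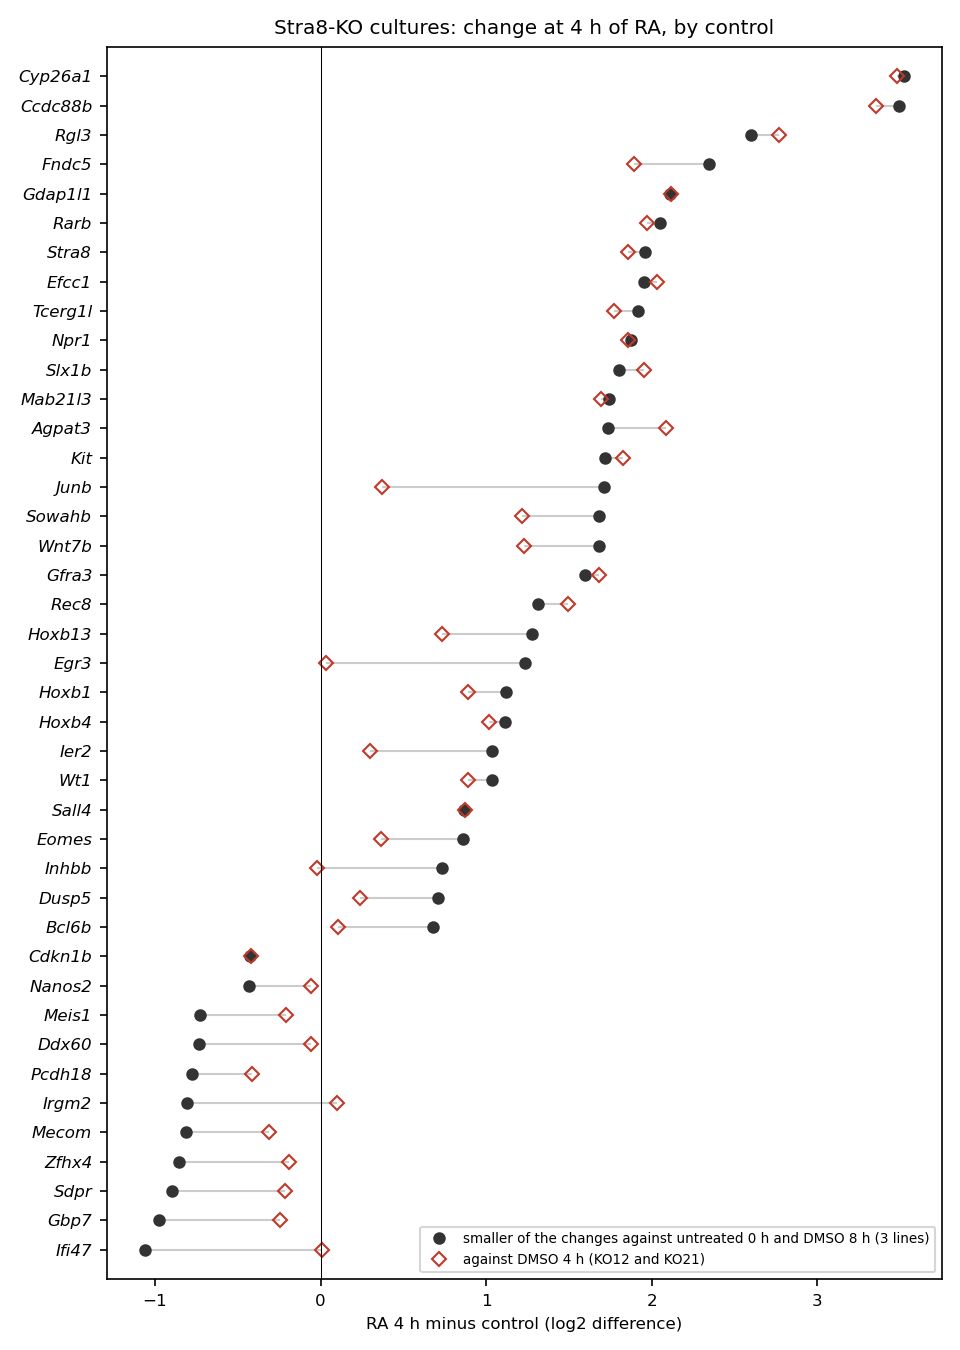
Change at RA 4 h in KO cultures for 41 early genes, as the smaller of the changes against untreated 0 h and DMSO 8 h (filled circles, 3 cultures) and as the difference from DMSO 4 h (open diamonds, mean of KO12 and KO21), on a log2 scale. Cyp26a1, Rarb, Kit, Rec8 and Sall4 have both symbols close together, and for Egr3, Inhbb, Ifi47 and Irgm2 the diamond lies near 0.

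Immediate early genes, which code for factors that respond to growth signals within minutes to hours, gave 10 genes that rose of 31 tested (32.3%, beside 8.19% of all genes) and none that fell, and 9 of the 31 lay below untreated. Of the 10, 7 were above DMSO 4 h in both KO12 and KO21, beside 80.2% of all early genes that rose and 27.7% of all genes tested. Their list median was 0.33 against untreated, 0.11 against DMSO 8 h and -0.036 against DMSO 4 h. Junb, a subunit of AP-1, had 10.80, 10.93 and 11.31 at RA 4 h, against 8.95, 8.96 and 9.27 untreated and 9.21, 9.38 and 9.32 at DMSO 8 h. It rose by 1.96 ± 0.08 and 1.71 ± 0.08 (larger adjusted p = 6.42e-07). In the 4 h vehicle it had 10.38 in KO12 and 10.99 in KO21, above every untreated and DMSO 8 h library, and the difference of RA 4 h from it was 0.37.

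Egr3, a zinc finger factor, had 9.55, 9.34 and 9.46 at RA 4 h, against 8.18, 8.19 and 8.28 untreated and 8.09, 8.30 and 7.93 at DMSO 8 h. DMSO 4 h had 9.53 and 9.41, the level of RA 4 h. Its changes were 1.23 and 1.34 against the outer controls and 0.03 against DMSO 4 h. Ier2 rose by 1.41 and 1.04 and differed from DMSO 4 h by 0.30, and Jund, Atf3 and Zfp36 differed from it by 0.22, 0.27 and 0.01. Nr4a1 and Btg2 rose by 0.42 and 0.26 and by 0.19 and 0.26 against the outer controls and had differences of -0.23 and -0.08 from DMSO 4 h. The stress genes Gadd45g and Gadd45b kept more of their change, with 0.82 and 0.52 over DMSO 4 h beside 1.08 and 0.99, and 0.81 and 0.46. The call of Atf3 was lost without KO12 (adjusted p = 0.0654) or KO20 (0.0904). Fos, Egr1 and Dusp1 were not early.

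Targets of GDNF and FGF signalling, which sustain stem cells in this medium, showed the same contrast. Of 29 tested, 9 rose (31%, beside 8.19% of all genes) and 1 fell (3.45%, beside 5.27%), and the list median was 0.23 against untreated, 0.12 against DMSO 8 h and -0.077 against DMSO 4 h. Bcl6b, a GDNF-induced repressor needed for stem cell upkeep, had 13.37, 13.83 and 13.79 at RA 4 h, against 12.67, 13.02 and 13.03 untreated and 12.86, 13.16 and 12.94 at DMSO 8 h. The 4 h vehicle had 13.33 in KO12 and 13.62 in KO21, near RA 4 h. Dusp5, an ERK phosphatase, rose by 0.85 and 0.71 with 0.24 over DMSO 4 h, and Etv4 by 0.36 and 0.35 with 0.20. For Dusp6 and Spry4, other ERK feedback genes, increases of 0.29 and 0.36 and of 0.23 and 0.21 became differences of -0.08 and -0.09, and the call of Spry4 was lost with quantile normalization (adjusted p = 0.0599) and without KO20 (0.109). Spred2, a further ERK inhibitor, differed most from the 4 h vehicle among the members that rose, by 0.62. It had 11.95, 12.06 and 11.94 at RA 4 h, against 11.15, 11.17 and 11.22 untreated, 11.27, 11.26 and 11.19 at DMSO 8 h, and 11.35 and 11.30 in the 4 h vehicle.

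Cytokine and STAT feedback genes went both ways: of 17 tested 5 rose (29.4%, beside 8.19% of all genes) and 6 fell (35.3%, beside 5.27%). Pim1, a survival kinase gene, had 12.40, 12.36 and 12.27 at RA 4 h, against 11.40, 11.58 and 11.57 untreated and 11.34, 11.38 and 11.39 at DMSO 8 h. It rose by 0.82 and 0.97, with 0.80 over DMSO 4 h. Cish, an inhibitor induced by STAT5, had 7.26, 7.33 and 7.15 at RA 4 h, against 7.32, 7.61 and 7.51 untreated and 7.84, 7.94 and 7.94 at DMSO 8 h. KO20 at RA 4 h lay at the level of untreated KO12, and the decrease was 0.24 and 0.66 (larger adjusted p = 0.0386), with a difference of -0.49 from DMSO 4 h. Socs2 fell by 0.34 and 0.46, with -0.47. Stat3 fell by 0.35 and 0.21, with -0.12, Socs3 by 0.35 and 0.17, with -0.06, and the repressor Bcl6 by 0.65 and 0.33, with 0.02. Calls were lost without any 1 culture for Cish (adjusted p = 0.0521 to 0.212) and Socs2 (0.0994 to 0.107), without KO12 or KO21 for Socs3 (0.207 and 0.109) and without KO12 or KO20 for Bcl6 (0.0638 and 0.0771).

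Of the 8 largest decreases 4 were in interferon-induced genes, Ifi47, Gbp7, Irgm2 and Ddx60. Ifi47, an interferon-inducible GTPase, had 5.36, 4.83 and 5.19 at RA 4 h, against 6.39, 6.78 and 6.76 untreated and 6.18, 6.21 and 6.17 at DMSO 8 h. The groups did not overlap, and the change was -1.51 ± 0.15 and -1.06 ± 0.15 (larger adjusted p = 0.000399). In the 4 h vehicle it was 5.10 in KO12 and 5.44 in KO21, a difference of 0.01. Gbp7, a guanylate-binding protein gene, fell by 1.40 and 0.97 with -0.25 from DMSO 4 h, and Ddx60 by 0.90 and 0.74 with -0.06. Irgm2, another GTPase, had 8.32, 8.52 and 8.56 at RA 4 h, against 9.40, 9.55 and 9.41 untreated and 9.16, 9.36 and 9.31 at DMSO 8 h, with 8.23 and 8.45 in the 4 h vehicle. Its change against DMSO 4 h was 0.10, so the direction turned. Igtp, whose span overlaps that of Irgm2 and may share its reads, did likewise with changes of -0.74 and -0.56 and a difference of 0.06.

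A list of 58 interferon-induced genes, drawn up after these values were seen and so no independent evidence, had 54 tested. Of these 17 fell (31.5%) and none rose, beside 5.27% of all genes tested. Its median was -0.37 against untreated, -0.13 against DMSO 8 h and 0.004 against DMSO 4 h. Of the 17, 6 were below DMSO 4 h in both KO12 and KO21, beside 33.6% of all genes tested. In both cultures 3 lay above it, beside 27.7%. Among all early genes that fell, the share below it in both was 78.3%. The Irgm2 promoter is shown as an example of the interferon-stimulated response element whose core (GAAANNGAAA, both strands) 6 of the 12 matched early members held, beside 3.53% of all 11505 windows, with the core in capitals.
Irgm2: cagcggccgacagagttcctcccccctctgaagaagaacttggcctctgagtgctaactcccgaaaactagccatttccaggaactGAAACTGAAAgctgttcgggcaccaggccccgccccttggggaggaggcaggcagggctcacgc
It lies at chr11:58214827-58214976 on the plus strand (build GRCm38.p6). The GAS element (TTCNNNGAA) was found in 6 of the 12 and in 8.08% of all windows. The list was of interferon-induced genes, and its members that were not early were not compared. The shares of both elements therefore say nothing about the decrease.

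Other deep decreases were in Sdpr, a caveolar protein gene (-0.90 and -1.17), Zfhx4 (-1.09 and -0.85), Mecom (-0.81 and -0.81), Pcdh18 (-1.08 and -0.78), the homeobox genes Meis1 (-1.08 and -0.73) and Meis2 (-0.68 and -0.58) and Etv1 (-0.53 and -0.77). Meis1 had 4.82, 5.23 and 5.59 at RA 4 h, against 5.54, 6.44 and 6.91 untreated and 5.31, 6.27 and 6.24 at DMSO 8 h. KO12 was the lowest culture in each group, and its untreated and DMSO 8 h values lay below KO21 at RA 4 h, so the groups overlapped while each culture fell. Its difference from DMSO 4 h was -0.21. The others also differed less from DMSO 4 h than from the outer controls. Sdpr differed by -0.22, Zfhx4 by -0.19, Mecom by -0.31, Pcdh18 by -0.41, Meis2 by -0.15 and Etv1 by -0.10. Of the 24 feeder markers 2 fell (8.33%, beside 5.27% of all genes), S100a4 (-0.45 and -0.78) and Thy1 (-0.27 and -0.67), which spermatogonia also express. Their differences from DMSO 4 h were -0.12 for S100a4 and -0.32 for Thy1. Calls were lost without KO20 for Meis1 (adjusted p = 0.0599), Meis2 (0.217) and Etv1 (0.139), and without KO12 or KO21 for S100a4 (0.0615 and 0.121) and Thy1 (0.238 and 0.135). The feeder list had a median of -0.44 against untreated and -0.32 against DMSO 8 h, with 19 and 21 of 24 members below 0, and -0.20 against DMSO 4 h. The part of the feeder cells in these decreases was not tested.

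Of 34 genes of G1/S phase 4 rose (11.8%) and 1 fell (2.94%), near the shares of all genes tested, 8.19% and 5.27%. Cdkn1b, the inhibitor p27, had 7.51, 7.37 and 7.38 at RA 4 h, against 8.23, 8.18 and 8.09 untreated and 7.92, 8.00 and 7.62 at DMSO 8 h. It fell by 0.74 and 0.43 (larger adjusted p = 0.00244), with -0.42 from DMSO 4 h. Ccne1, cyclin E1, rose by 0.28 and 0.20 with 0.29. Cdkn1a, the inhibitor p21, rose by 0.51 and 0.29 but was -0.11 against DMSO 4 h. Of 30 genes of G2/M phase Cdc25c alone rose (0.28 and 0.47), a share of 3.33%, below the 8.19% of all genes. Of 26 p53 targets and apoptosis genes 5 rose, with Sesn2 at 0.56 and 0.69, and 7 fell (26.9%, beside 5.27% of all genes), among them Fas (-1.04 and -0.35) and Zmat3 (-0.36 and -0.41). Calls were lost without KO20 for Cdkn1b (adjusted p = 0.0636) and without KO12 or KO20 for Ccne1 (0.132 and 0.13) and Fas (0.179 and 0.234).

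Of 21 genes of DNA methylation and germline repression 4 fell (19%, beside 5.27% of all genes) and 1 rose (4.76%, beside 8.19%). The DNA demethylases Tet1 (-0.86 and -0.31) and Tet2 (-0.75 and -0.32) and the Polycomb genes Ring1 (-0.38 and -0.27) and Pcgf6 (-0.29 and -0.22) fell, with differences from DMSO 4 h of 0.06, -0.15, -0.09 and -0.14, and Rnf2 rose by 0.24 and 0.26. The call of Tet1 was lost with quantile normalization (adjusted p = 0.0622), with median centring (0.0544) and without KO12 (0.142) or KO20 (0.271), that of Tet2 without any 1 culture (adjusted p = 0.0725 to 0.137) and that of Ring1 without KO20 (0.127). Among 25 piRNA and germ granule genes Tex19.1 rose by 0.30 and 0.27 and Nanos2 fell (4% each, below the 8.19% and 5.27% of all genes). Among 22 cholesterol genes Insig1 alone rose (4.55%, below the 8.19% of all genes), by 0.21 and 0.16, and its call was lost with quantile normalization (adjusted p = 0.161) and without KO20 (0.268). Neither of these increases was seen against DMSO 4 h, with differences of 0.01 for Tex19.1 and -0.004 for Insig1.

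Of 11 Sertoli cell markers 2 rose (18.2%, beside 8.19% of all genes tested), Wt1 (1.03 and 1.04, with 0.89 over DMSO 4 h) and the inhibin subunit Inhbb (0.73 and 0.79, with -0.02). The call of Inhbb was lost without KO20 (adjusted p = 0.0995) and without KO12 (0.179), where its change was 0.46. The list's summed level was 15808 to 17709 at RA 4 h, 15860 to 17420 at DMSO 8 h and 15961 to 16910 untreated. Its highest marker had a level of log2 13.97, beside a list median of 4.47. The sum therefore follows mostly 1 gene and does not describe the other markers. Pecam1 rose by 0.45 and 0.50, 1 of 6 endothelial markers (16.7%). None of 3 Leydig, 5 macrophage and 3 spermatid markers was early, and 4, 3 and 6 others of these lists were too low to test. The macrophage sum was 570 to 2645 at RA 4 h, 588 to 832 at DMSO 8 h and 492 to 2710 untreated.

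Later hours, whose RA and vehicle libraries at 24 h the calls did not use, showed which early changes lasted. Against DMSO 24 h 2412 genes were higher (14.8%) and 2549 lower (15.7%), and this total of 4961 was 2764 without KO12 and 2971 without KO21. Of the 1331 early genes that rose, 659 (49.5%) were higher at 24 h, 117 (8.79%) lower and 555 neither, and of the 857 that fell 320 (37.3%) were lower and 60 (7%) higher. Among the 14071 genes that were not early the shares were 12% higher and 15% lower. Of the 73 genes that had risen by 1 or more, 65 (89%) were higher at 24 h.

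Kit went on to 12.92 ± 0.10 at RA 24 h (SD, n = 3), against 9.23 at DMSO 24 h, a change of 3.69 ± 0.12 (SE, adjusted p = 2.51e-07). The 24 h change was 3.23 for Rarb, 3.24 for Wnt7b, 3.15 for Gdap1l1, 2.85 for Blvrb, 2.36 for Tgm2, 2.27 for Cyp26b1 and 2.16 for Bco1, each above its change at 4 h, though the difference between the hours was not tested. Cyp26a1 was at 9.04 ± 0.25 after 8 h and 8.83 ± 0.37 after 24 h (SD), close to its level at 4 h, and Sall4 at 13.19 ± 0.04 and 13.12 ± 0.06. Aldh1a3 was lower at 24 h by a change of -1.11 and Nanos2 by -0.98. In contrast, Junb (0.12, adjusted p = 0.703), Egr3 (-0.32), Bcl6b (-0.11), Dusp5 (0.04) and Cish (-0.02) were not called at 24 h. Of the 8 largest decreases, Gbp7 (-0.30), Ddx60 (-0.05) and Irgm2 (-0.01) were not called there either. Ifi47 (-0.695), Zfhx4 (-0.67), Mecom (-0.41) and Pcdh18 (-0.85) were still lower, and Sdpr was higher (0.705). Spry4 and Dusp6 were lower at 24 h, by -0.50 and -0.33.

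**Figure D4:**
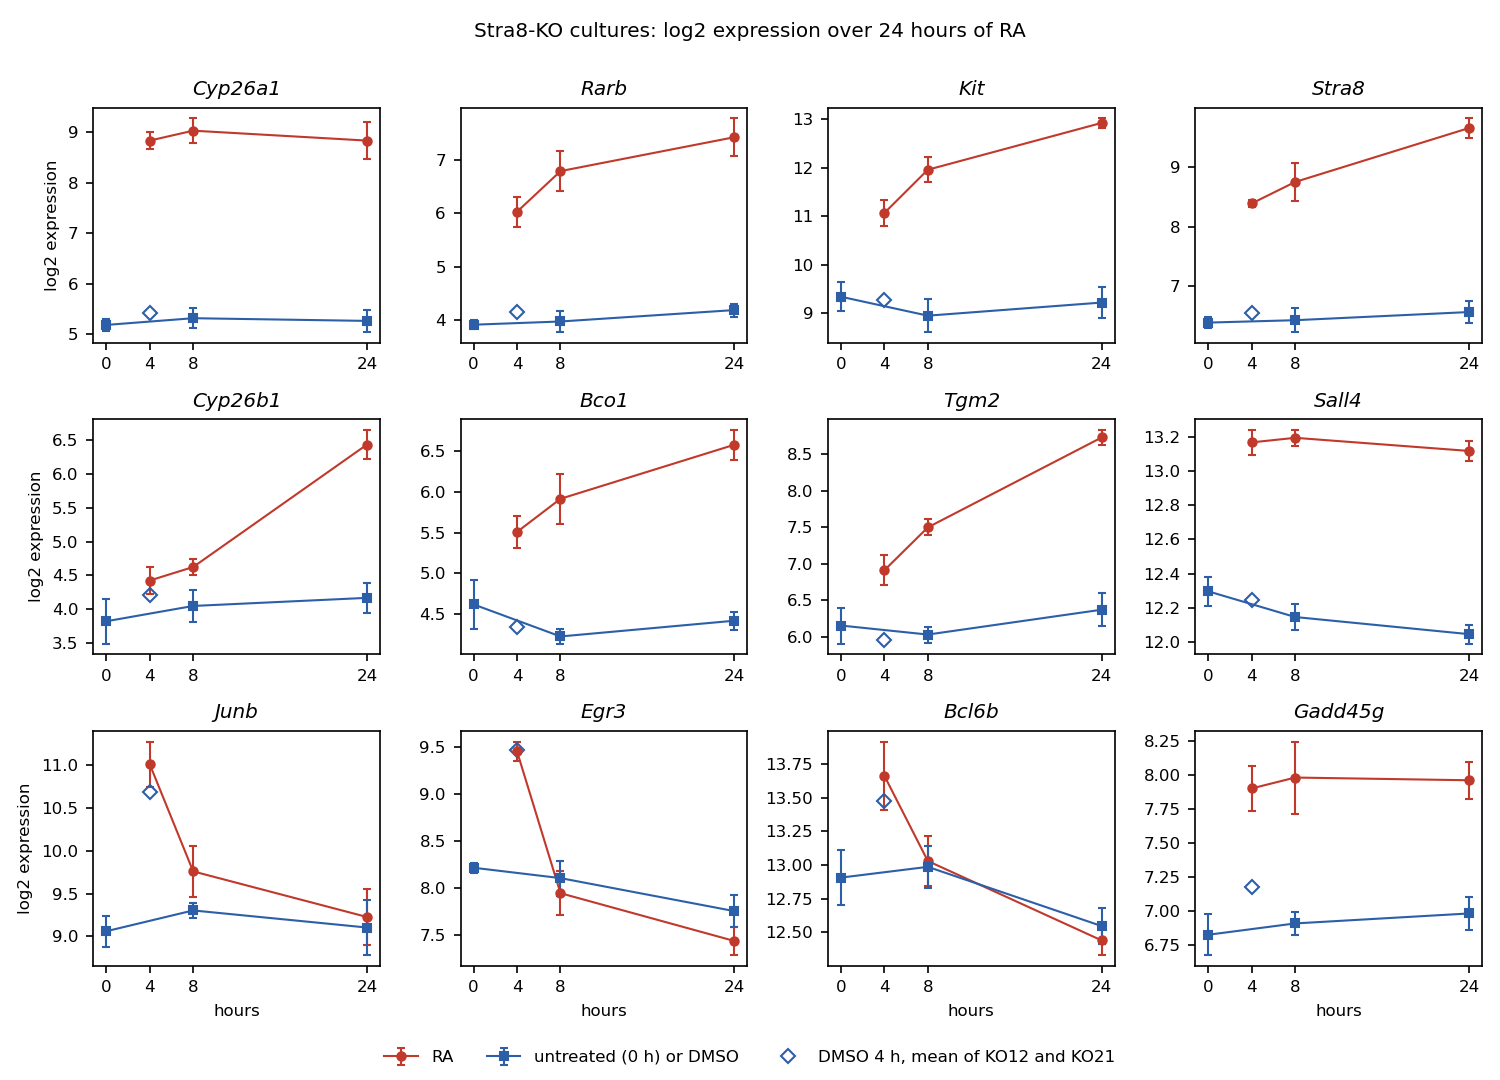
Log2 expression of 12 early genes in KO cultures over 24 hours, as mean ± SD of 3 cultures under RA (circles) and in untreated (0 h) or DMSO cultures (squares), with the mean of KO12 and KO21 at DMSO 4 h as an open diamond. Kit, Rarb, Tgm2 and Cyp26b1 climb to 24 h, Cyp26a1 and Sall4 are level from 4 h, and Junb, Egr3 and Bcl6b are highest at 4 h, where the open diamond also lies above the other controls.

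The same brackets were applied to WT17, WT23 and WT25. There 953 genes rose (5.86%) and 837 fell (5.15%), and without WT25 413 and 273. Of the 1331 genes that rose in KO, 709 (53.3%) also rose in WT and none fell, which is 74.4% of the WT set. Of the 857 that fell in KO, 433 (50.5%) fell in WT and none rose, 51.7% of the WT set. Of the 73 genes with increases of 1 or more in KO, 69 (94.5%) were early in WT. An early call in 1 genotype alone is not a difference, and the interaction, the KO change minus the WT change, was called against both controls in 1 gene of 16259 (0.00615%). No gene was called without WT25, with no filter on low values or without limma's trend and robust options, and without WT17 there were 2. At an unadjusted p below 0.05 in both comparisons there were 290. Alone, the interaction was called in 1 gene against untreated (0.00615%) and in 6 against DMSO 8 h (0.0369%).

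That gene was Irf1, an interferon-induced transcription factor. It had 12.11, 12.08 and 12.19 at RA 4 h in KO, against 11.84, 11.85 and 11.77 untreated and 12.07, 11.99 and 12.14 at DMSO 8 h. In WT it had 11.75, 11.79 and 11.64 at RA 4 h, against 11.84, 11.90 and 11.88 untreated and 12.12, 12.17 and 12.08 at DMSO 8 h. RA 4 h was thus the lowest group in WT and not in KO. The interaction was 0.46 ± 0.06 against untreated (SE, adjusted p = 0.00433) and 0.46 ± 0.06 against DMSO 8 h (adjusted p = 0.00359).

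Stra8 itself rose less in KO. WT had 12.52, 12.13 and 12.30 at RA 4 h, against 8.91, 7.65 and 7.63 untreated and 7.29, 7.60 and 7.31 at DMSO 8 h. Every KO library at RA 4 h lay below every WT library at RA 4 h. The KO change minus the WT change was -2.95 ± 0.35 against DMSO 8 h (adjusted p = 0.0432) and -2.26 ± 0.35 against untreated, which did not pass (adjusted p = 0.29). Untreated WT17 stood apart at 8.91. Sycp2, of the synaptonemal complex, was called against DMSO 8 h alone, with -0.16 in KO, 0.40 in WT and an interaction of -0.55 (adjusted p = 0.0102), as were Irf2bpl, Sh3bp4 and Cyp2s1. For Cyp26a1 the difference was 0.50 ± 0.23 against DMSO 8 h (adjusted p = 0.582), for Rarb 0.47, for Kit -0.11 and for Junb 0.78, none of them called.

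**Figure D5:**
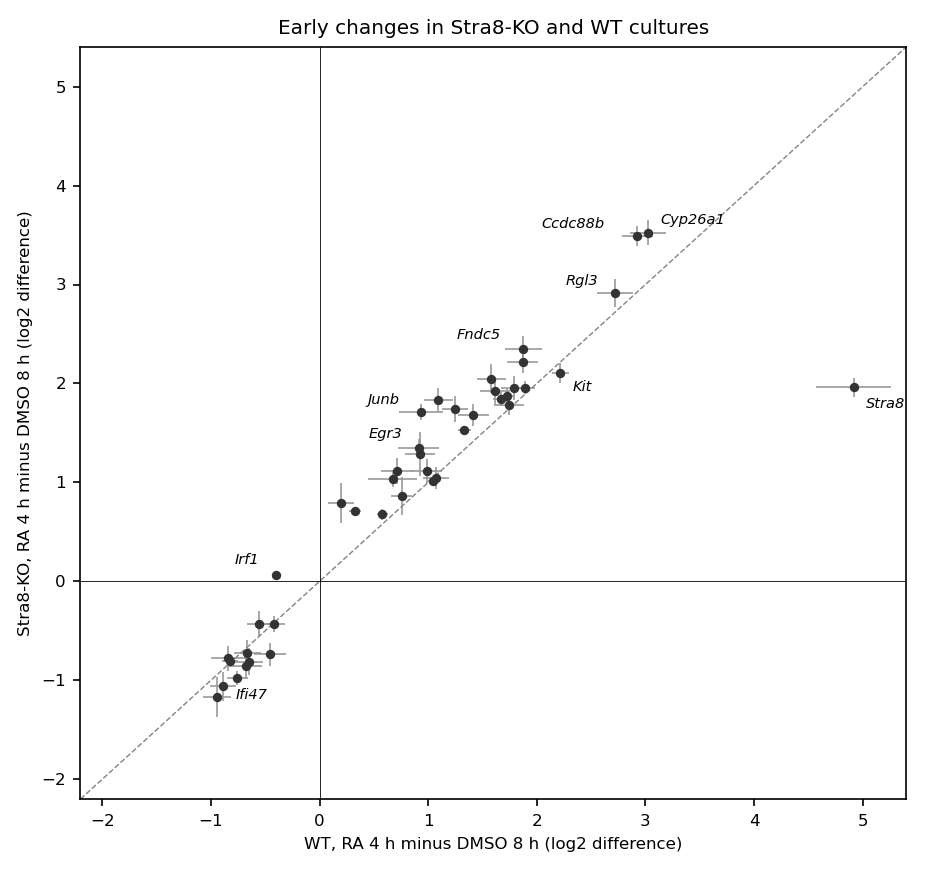
Change at RA 4 h from DMSO 8 h in KO (vertical) and WT cultures (horizontal) for 41 early genes and Irf1, on a log2 scale with bars of 1 SE and a dashed line of equality. Stra8 lies far below the line, at 1.96 in KO and 4.92 in WT, and most other genes that rose lie on the line or above it, Junb at 1.71 in KO and 0.94 in WT.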

How the data were processed

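Polyadenylated RNA from the cultures was sequenced with a stranded kit, per the labels' protocols. Per the file headers, the authors deposited log2 values of 46983 genes for 42 libraries, which by their values had been scaled to each other. The authors' mean signal per gene, deposited beside them, served to choose genes for comparing libraries. STAR 2.5.1b, GRCm38.p4 and DESeq are listed in the submitters' processing notes. How reads were counted, and whether by strand, was not stated. The scaling removes differences in total RNA, and without read totals no counting interval can be given.

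Genes reaching 3.32 (log2 of 10) in at least 3 of 36 libraries outside DMSO 4 h were tested, 16259 in all. The 9 KO libraries were fitted with limma 3.58.1 (R 4.3.3, data.table version 1.17.8; trend and robust options) with the culture as a block, and p-values were adjusted over all genes by the Benjamini-Hochberg method. The culture names pair the libraries: deviations from group means correlated at 0.327 to 0.678 within a culture and at -0.531 to 0.112 between cultures. KO was compared with WT in 1 fit of 18 libraries, and 24 h in 1 of 12. Differences from DMSO 4 h are means over KO12 and KO21. Tests were checked on simulated data.

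Genes named by rule were the 18 largest increases and 8 largest decreases among early genes (by the smaller of the changes, with all cultures moving alike and predicted genes left out), a few genes always named, up to 4 early members of each list, the genes that differed between genotypes and examples called against 1 control. Members and lists were chosen with earlier results of these data known, and Blvrb, the HoxB genes beyond the rule and other single genes were named after their values were seen. The labels list 2 samples for WT17 at RA 24 h and the deposited values hold 1 of them, which was not used. Alternatives were another normalization, centring, filters, options, control sets and leaving out each culture. Some genes counted in the lists are not reported here by name.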

Additional observations from a re-analysis of the deposited data

Results flagged for a closer look

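Irf1 differed between genotypes by a test of the difference itself: the KO change minus the WT change at RA 4 h was 0.459 against untreated (adjusted p = 0.00433, limma) and 0.465 against DMSO 8 h (adjusted p = 0.00359). It was higher than untreated in every KO culture and lower in every WT culture. No gene was called for the genotype difference with no filter on low values, without limma's trend and robust options or without WT25, so the call of Irf1 was lost there.

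Btg2 moved in opposite directions in every culture of the genotypes, higher in KO by 0.189 and 0.257 and lower in WT by changes of -0.151 and -0.125 against untreated and DMSO 8 h. The WT changes were not called (adjusted p = 0.071 and 0.161, limma), and RA 4 h in KO differed from DMSO 4 h by -0.083. The KO change minus the WT change was 0.34 and 0.382, and neither passed (adjusted p = 0.449 and 0.134, limma).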

How the results depend on the processing

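Counts of calls depended on the fit more than directions did. Without the culture as a block (no replicate block) 2609 genes were called against untreated, 1280 against DMSO 8 h, 453 between the controls and 2780 at 24 h, with 658 early higher and 209 early lower in KO and 536 and 356 in WT; 657 and 209 of the KO early genes were kept. With no filter on low values the counts were 3481, 1863 and 867, with 875 and 351 early in KO, 493 and 342 in WT and 0 for the genotype difference. Without limma's trend and robust options they were 1312 between the controls, 564 higher in WT and 0 for the genotype difference, and with median centring 1559 rose in WT. At an adjusted p below 0.01 there were 808 and 323 early genes, and against the mean of both controls 2455 and 2247.

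Leaving out 1 culture gave 2538 to 4859 calls against untreated, 1518 to 3391 against DMSO 8 h, 523 to 2234 between the controls, 2764 to 3904 at 24 h, 669 to 1215 early higher and 299 to 892 early lower in KO. In WT it gave 413 to 820 early higher and 273 to 749 early lower, and the genotype difference 0 to 2 genes.

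Among single named genes the call was lost for 43 without the block, 8 with quantile normalization, 5 with median centring, 19 with no filter on low values, 13 without limma's trend and robust options, 8 with all 18 KO libraries in 1 fit, and 21, 29 and 11 without KO12, KO20 and KO21.

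Against DMSO 4 h of KO12 and KO21 the direction turned for Ifi47 (0.008), Irgm2 (0.101), Igtp (0.064), Xaf1 (0.048), Bcl6 (0.017), Tet1 (0.060), Cdkn1a (-0.113), Insig1 (-0.004), Inhbb (-0.023), Dusp6 (-0.077), Spry4 (-0.089), Btg2 (-0.083) and Nr4a1 (-0.232). Near 0, Txnip (0.003) and Epas1 (0.014) turned with median centring, and leaving out 1 culture gave -0.027 to 0.011 for Epas1 (above 0 without KO20) and -0.040 to 0.001 for Txnip (above 0 without KO21). The cause was not tested. Depth is unknown, and 3 cultures per group limit the precision.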
